A study of Mus musculus with 16 samples.

Results

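Interferon-induced antiviral effectors are the proteins that act on viral RNA, protein or membranes once a cell has sensed interferon. The 40 genes described here were taken by symbol from a list of such effectors, and all 40 were found among the 54532 genes of the expression table. They comprised 4 IFIT genes, Isg15 and its protease Usp18, 6 OAS or OAS-like genes, 2 Mx genes, 3 guanylate-binding or immunity-related GTPases and 4 membrane proteins. The others were 4 nucleotide or RNA enzymes, 4 ubiquitin ligases, 4 genes of the PARP group counted with Helz2, and 7 further interferon-induced genes. The member list did not use any value of the table, although it was drawn up with earlier results of these data known.

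The study sequenced RNA from cultures labelled as mouse hepatocytes, the main parenchymal cell of the liver. The 5 groups were co-culture with cancer cells wild-type for Phgdh (WT) plus a CXCR2 inhibitor (n = 3), co-culture with Phgdh knockout (KO) cancer cells plus the inhibitor (n = 4), WT co-culture (n = 3), KO co-culture (n = 3) and hepatocytes alone, called monoculture (n = 3). Phgdh encodes the enzyme that opens the pathway of serine synthesis, and CXCR2 is a chemokine receptor best known on neutrophils. The design text describes the sequenced material as HY19636 cancer cells instead, which conflicts with the labels, and the labels were followed. By the labels the knockout lies in the co-cultured cancer cells, so Phgdh in a hepatocyte library does not check it. Phgdh had 145.8 to 157.1 FPKM in KO co-culture with inhibitor and 154.8 to 160.2 FPKM in WT co-culture with inhibitor, and 193.5 to 201.1 FPKM in KO co-culture against 194.9 to 206.2 FPKM in WT co-culture, with 203.2 to 207.5 FPKM in monoculture. No inhibitor name, dose, time, vehicle, culture format or animal age is given, and hepatocytes alone were not given the inhibitor, so the inhibitor comparisons hold only for co-culture. Nothing states that replicates were separate cultures, and p-values then measure only the spread between these libraries.

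Type I interferons bind the receptor made of Ifnar1 and Ifnar2, whose kinases act on transcription factors that include Stat2. With Irf9 these form a complex that binds the interferon-stimulated response element (ISRE), a short motif of paired GAAA repeats in the promoters of effector genes. Interferon gamma acts mainly through another motif, the gamma-activated site (GAS). Hepatocytes carry both receptors, and in the liver the response is known as a defence against hepatotropic viruses.

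Promoter sequences were compared with this known wiring. RefSeq start sites in build GRCm38.p6 were available for 32 of the 40 members, as windows of 250 bases before to 50 bases after the start. An ISRE-type motif, GAAANNGAAA or its other strand TTTCNNTTTC, lay in at least 1 window of 17 of these 32 members (53.1%), and in 3.44% of all 32851 windows or 3.99% of all 27025 gene symbols. The GAS-type motif TTCNNNGAA, which reads the same on both strands, lay in 6 of the 32 (18.8%), against 8.30% of windows and 9.55% of symbols. The sequences below come from selected members with an ISRE-type match, which is shown in capitals. Members without a match, such as Ifit2, or without a window, such as Usp18, are not shown. Each sequence is read 5′ to 3′ on the gene's own strand and ends at or before its RefSeq start. Overlapping matches run together. For Ifitm3, whose matches lie just after that start, the matched site alone is given.
Ifit1 (chr19:34640762-34640821, + strand): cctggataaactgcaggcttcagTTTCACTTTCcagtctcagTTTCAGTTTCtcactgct
Isg15 (chr4:156200867-156200926, - strand): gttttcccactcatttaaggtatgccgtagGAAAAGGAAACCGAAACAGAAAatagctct
Trim30a (chr7:104465212-104465271, - strand): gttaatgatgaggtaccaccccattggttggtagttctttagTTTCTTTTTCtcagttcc
Ifitm3 (chr7:141010716-141010742, - strand): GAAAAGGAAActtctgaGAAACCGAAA
Ifitm2 (chr7:140955990-140956049, - strand): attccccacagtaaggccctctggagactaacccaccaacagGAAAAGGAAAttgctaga
Oas1a (chr5:120907526-120907585, - strand): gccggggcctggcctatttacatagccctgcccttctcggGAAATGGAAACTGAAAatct
Oas1g (chr5:120887614-120887673, - strand): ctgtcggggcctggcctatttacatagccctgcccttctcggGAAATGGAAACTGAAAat
Ifit3 (chr19:34583365-34583424, + strand): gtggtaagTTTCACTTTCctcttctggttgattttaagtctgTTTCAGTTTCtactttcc
Ifit3b (chr19:34607761-34607820, + strand): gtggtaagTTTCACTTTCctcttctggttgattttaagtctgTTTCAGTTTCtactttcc
Irgm1 (chr11:48871427-48871486, - strand): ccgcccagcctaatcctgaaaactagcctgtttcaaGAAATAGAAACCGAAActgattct
Ifi207 (chr1:173741833-173741892, - strand): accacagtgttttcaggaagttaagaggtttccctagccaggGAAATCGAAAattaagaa
The printed stretches of Ifit3 and Ifit3b are identical, and those of Oas1a and Oas1g hold the same run of capitals. These pairs are close gene copies, so how the counting split their fragments is uncertain. Ifit1, Ifit3 and Ifit3b each carry a pair of matches, and Isg15 carries 3 overlapping ones. A match is a string of letters and no record of binding.

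Depth was similar across groups. Fragment numbers recovered from the deposited FPKM values (fragments scaled to 1 kb of gene and to a sequencing depth of 1 M) were 15.0 to 17.1 M in WT co-culture with inhibitor, 16.1 to 21.3 M in KO co-culture with inhibitor, 16.2 to 20.9 M in WT co-culture, 18.1 to 21.2 M in KO co-culture and 16.4 to 21.0 M in monoculture. Of the 40 members, 38 reached a mean of 1 FPKM over all 16 libraries and were tested with limma among 11395 genes, with an adjusted p under 0.05 as the call. Mx1 and Ifitm1 fell short of it. Of 7 measured hepatocyte markers, 7 averaged at least 1 FPKM in both inhibitor groups, 6 in monoculture and 5 in both untreated co-cultures. Alb (albumin) had 323.1 to 342.8 FPKM in WT and 454.2 to 474.9 FPKM in KO co-culture with inhibitor. Without inhibitor it had 22.5 to 27.2 FPKM in WT co-culture, 27.0 to 28.4 in KO co-culture and 55.0 to 58.4 in monoculture. In monoculture the 7 markers summed to 245.6 to 252.2 FPKM, against 1512 to 1518 FPKM for 9 pancreatic epithelial markers. Only 5 of those 9 averaged at least 1 FPKM in monoculture, and a sum can be carried by few genes. Marker levels were not used to decide between the labels and the design text.

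With the CXCR2 inhibitor, nearly the whole effector group was high. The 40 members summed to 1200.0 to 1254 FPKM in WT co-culture with inhibitor and 1126 to 1168 FPKM in KO co-culture with inhibitor, against 236.0 to 253.6 FPKM in WT co-culture, 262.3 to 276.4 FPKM in KO co-culture and 291.8 to 322.4 FPKM in monoculture. For 37 of the 40, each of the 7 inhibitor libraries lay above each of the 9 others. The exceptions were Irgm1, Ifitm2 and Ifitm1. All 7 inhibitor libraries held 23 members at 10 FPKM or more. Only 6 members (Irgm1, Ifitm2, Bst2, Samd9l, Trim25 and Ifi35) reached 10 FPKM in any library without inhibitor. These counts were made for the members only and not over all genes, so they do not show whether members differ in this from other genes. Changes with inhibitor were common, with 66.6% of all genes called in WT and 69.5% in KO co-culture.

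**Figure D1:**
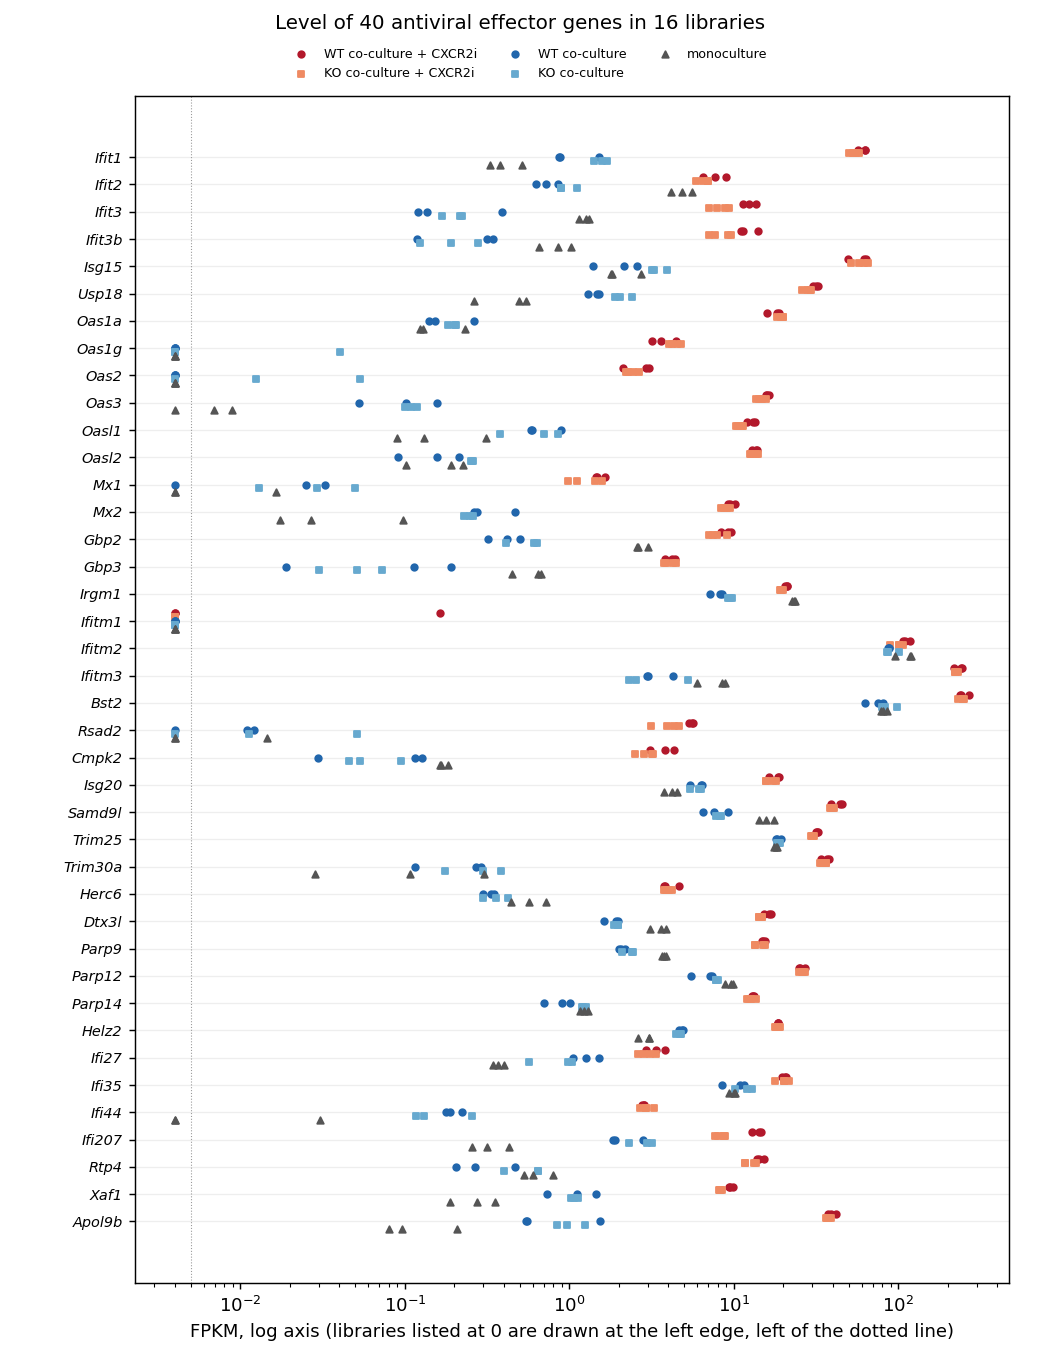
FPKM on a log axis for the 40 members (rows), with 1 point per library and groups by colour and marker. The 7 inhibitor libraries lie to the right of the other 9 for 37 members, while those of Irgm1 lie below monoculture, those of Ifitm2 overlap with it, and Ifitm1 was listed at 0 in 15 libraries.

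In WT co-culture, all 38 tested members were higher with the inhibitor and none lower, where 66.6% of all genes tested were called, 33.5% higher and 33% lower. In KO co-culture 37 of 38 were higher and none lower, against 69.5% of all genes called, 34.8% higher and 34.7% lower. The median log2 fold change, taken on the log2(FPKM + 1) scale as all fold changes here, was 2.37 over members and -0.01 over all genes in WT co-culture, and 2.28 and -0.01 in KO co-culture. A log2 fold change of 2 or more was reached by 26 members in WT co-culture, against 1.89% of all genes, and by 23 members in KO co-culture, against 1.84%. By size of fold change, 18 members stood among the 100 highest genes in WT co-culture and 15 in KO co-culture. The test admitted many members through the inhibitor groups alone: only 19 averaged at least 1 FPKM across the 9 libraries without inhibitor. Of those 19, 19 were higher in WT co-culture and 18 in KO co-culture, with 32% and 33.1% of the 11024 genes passing the same limit called higher. Their median log2 fold change was 2.32 in WT and 1.94 in KO co-culture, against -0.03 over those 11024 genes in each. For the 19 other tested members, a higher level with inhibitor was largely fixed by the filter. The counts and medians over all 38 include them.

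**Figure D2:**
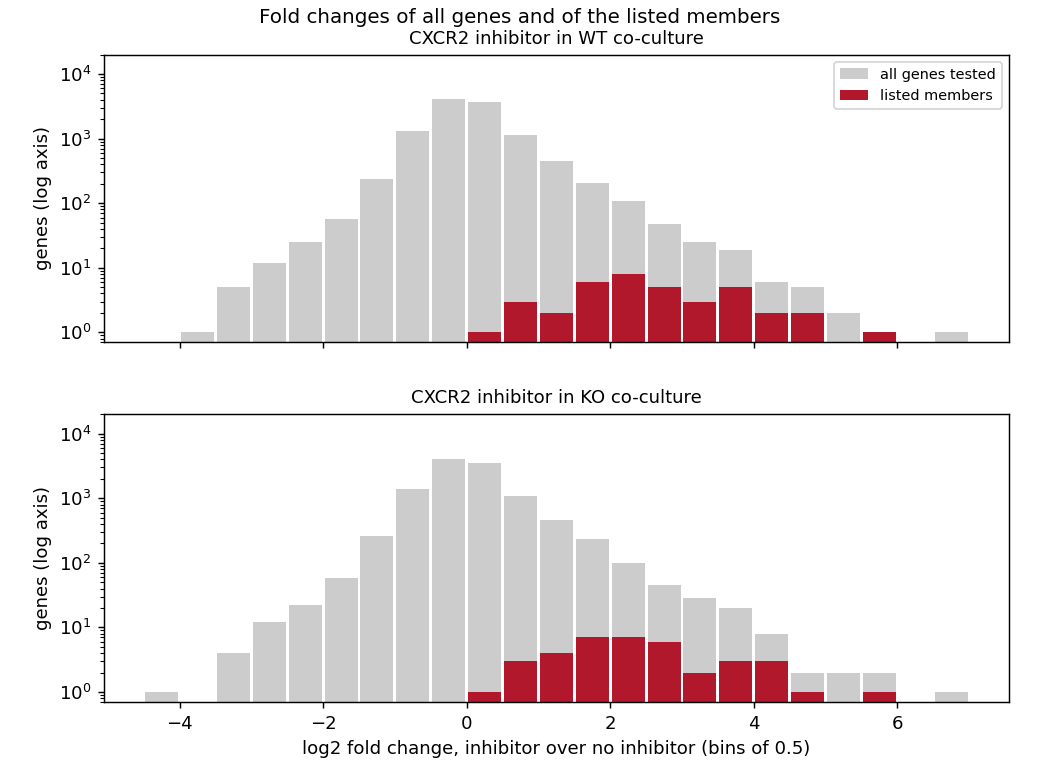
Number of genes (log axis) by log2 fold change for inhibitor over no inhibitor, in bins of 0.5, for all 11395 genes tested (grey) and for the 38 tested members (red), in WT co-culture above and KO co-culture below. The members lie right of 0 and most of them at a log2 fold change of 2 or more, while all genes centre on -0.01.

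Among the membrane proteins, Ifitm3, which restricts viral fusion in endosomes, had the second highest log2 fold change of all genes tested in WT co-culture and the third highest in KO co-culture. Ifitm3 stood at 241.5, 243.2 and 218.0 FPKM in WT co-culture with inhibitor, against 3.02, 2.96 and 4.29 FPKM in WT co-culture. It stood at 225.1, 229.4, 222.3 and 220.3 FPKM in KO co-culture with inhibitor, against 5.23, 2.31 and 2.53 FPKM in KO co-culture. The groups were far apart, with log2 fold changes of 5.74 ± 0.20 (SE) in WT co-culture (adjusted p = 3.55e-12, limma) and 5.75 ± 0.18 in KO co-culture (adjusted p = 1.29e-12, limma). In monoculture Ifitm3 was at 5.96, 8.51 and 8.80 FPKM, above both untreated co-cultures.

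The neighbouring Ifitm2, a relative that acts on entering viruses in a similar way, changed far less. Ifitm2 had 106.6, 110.2 and 117.8 FPKM in WT co-culture with inhibitor, against 87.9, 87.5 and 86.5 FPKM in WT co-culture, a log2 fold change of 0.35 ± 0.09 (adjusted p = 0.00283, limma). In KO co-culture it had 100.6, 89.0, 100.6 and 106.5 FPKM with inhibitor, against 85.7, 87.2 and 101.4 FPKM without, which overlap (log2 fold change 0.12 ± 0.08, adjusted p = 0.219, limma). Ifitm2 thus had the smallest log2 fold change of the tested members in both, and it was the one member not called in KO co-culture. Ifitm1, the third family member listed, had 3 fragments in 1 library of WT co-culture with inhibitor and 0 in the 15 others. The floor of 3 fragments corresponded to 0.148 FPKM on average over the 9 libraries without inhibitor. Bst2 (tetherin), which holds budding virions at the cell surface, was the most abundant member with inhibitor, at 236.6, 269.5 and 240.2 FPKM in treated WT co-culture against 63.2, 75.7 and 80.2 FPKM in untreated WT co-culture, and its log2 fold changes were 1.76 ± 0.09 in WT and 1.49 ± 0.08 in KO co-culture. Because the IFITM genes are similar in sequence, the split of fragments between them is uncertain.

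Trim30a, a TRIM-family protein of mouse that dampens inflammatory signalling, was near the detection limit without the inhibitor. Trim30a had 37.1, 33.8 and 37.7 FPKM in WT co-culture with inhibitor, against 0.272, 0.116 and 0.290 FPKM in WT co-culture. It had 36.3, 33.3, 34.5 and 36.5 FPKM in KO co-culture with inhibitor, against 0.384, 0.300 and 0.175 FPKM in KO co-culture. The ratios of mean FPKM were 160.2 in WT and 122.9 in KO co-culture, and the log2 fold changes were 4.92 ± 0.09 and 4.81 ± 0.08. The other ubiquitin ligases changed less: Dtx3l by log2 fold changes of 2.59 in WT and 2.41 in KO co-culture, Herc6, which attaches ISG15 to proteins in mouse, by 1.93 and 1.87, and Trim25, which acts on the RNA sensor RIG-I, by 0.76 and 0.65. Trim25 was already at 17.6 to 19.4 FPKM in the 9 libraries without inhibitor and reached 29.6 to 32.6 FPKM with it.

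The IFIT proteins bind viral RNA that lacks the host cap marks. Ifit1 had 62.4, 56.9 and 63.0 FPKM in WT co-culture with inhibitor, against 1.52, 0.874 and 0.862 FPKM in WT co-culture. It had 57.6, 55.0, 50.2 and 53.4 FPKM in KO co-culture with inhibitor, against 1.58, 1.41 and 1.69 FPKM in KO co-culture. With no overlap between treated and untreated libraries, the log2 fold changes were 4.90 ± 0.10 in WT and 4.43 ± 0.09 in KO co-culture. All 4 IFIT genes were called higher in both, Ifit3 by 3.47 and 2.94, its copy Ifit3b by 3.38 and 2.97, and Ifit2 by 2.32 and 1.94 in WT and KO co-culture. Ifit2 had no ISRE-type match in its window.

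Isg15 encodes the ubiquitin-like modifier that tags viral and host proteins, and Usp18 the protease that removes it and also restrains the interferon receptor. Isg15 averaged 58.2 and Usp18 31.6 FPKM in WT co-culture with inhibitor, against 2.04 and 1.43 FPKM in WT co-culture. In KO co-culture they averaged 59.4 and 28.2 FPKM with inhibitor, against 3.48 and 2.12 FPKM without. The log2 fold changes of Isg15 were 4.29 ± 0.15 in WT and 3.75 ± 0.14 in KO co-culture, and those of Usp18 3.75 ± 0.08 and 3.23 ± 0.07.

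The OAS enzymes make short oligoadenylates that switch on RNase L. All 6 OAS and OAS-like members were called higher in both, with median log2 fold changes of 3.34 in WT and 3.18 in KO co-culture. Each stayed below 1 FPKM in every library without inhibitor, so each entered the test only through the inhibitor groups. Oas1a averaged 17.8 FPKM in WT co-culture with inhibitor and 0.185 FPKM in WT co-culture, a log2 fold change of 3.98 ± 0.07, with 4.09 ± 0.06 in KO co-culture. Oas3 followed at 3.95 and 3.82, Oasl2 at 3.65 and 3.50, and Oasl1, which in mouse represses translation of Irf7, at 3.04 and 2.86. Oas1g had 4.42, 3.18 and 3.60 FPKM in WT co-culture with inhibitor and 0 fragments in all 3 libraries of WT co-culture, at least 53.7-fold higher against a floor of 3 fragments per library. Oas2 likewise had 0 fragments in WT co-culture and was at least 73.9-fold higher with inhibitor by the same floor.

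The Mx proteins are dynamin-like GTPases that trap viral nucleocapsids. Mx2 was higher by log2 fold changes of 3.0 ± 0.07 in WT and 2.99 ± 0.06 in KO co-culture, and the annotation lists it as a polymorphic pseudogene, as it is disrupted in many inbred mice. Mx1, not tested, had 1.65, 1.45 and 1.47 FPKM in WT co-culture with inhibitor and 1.57, 1.43, 0.982 and 1.11 FPKM in KO co-culture with inhibitor, and at most 0.0501 FPKM in any library without it. Among the GTPases of phagosome and vacuole defence, Gbp2 rose by log2 fold changes of 2.83 in WT and 2.51 in KO co-culture, Gbp3 by 2.21 and 2.27, and Irgm1, which steers autophagy, by 1.29 and 0.96.

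The nucleotide and RNA enzymes were also called higher throughout. Of these, Rsad2 and Cmpk2 stayed below 1 FPKM in every library without inhibitor and entered the test only through the inhibitor groups. Rsad2 (viperin), which makes a chain-terminating nucleotide, had 5.58, 5.64 and 5.35 FPKM in WT co-culture with inhibitor, from 1194 fragments, against 2 fragments in all of WT co-culture, a ratio of 714.6 with a counting interval of 185.3 to 5547. In KO co-culture Rsad2 had 3.92, 4.33, 4.65 and 3.13 FPKM with inhibitor, against 0.0114, 0 and 0.0511 FPKM without. Its genomic neighbour Cmpk2, which supplies the nucleotide substrate, had log2 fold changes of 2.12 and 1.89 in WT and KO co-culture. Samd9l, an inhibitor of translation, changed by 2.34 and 2.15, and the RNA exonuclease Isg20 by 1.43 and 1.35.

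Of the PARP group, which adds ADP-ribose to proteins, Parp14 rose most, by log2 fold changes of 2.91 in WT and 2.62 in KO co-culture. Parp9, the partner of Dtx3l, rose by 2.39 and 2.21, Parp12 by 1.80 and 1.61, and the helicase Helz2 by 1.75 and 1.78. Parp9 and Dtx3l overlap on opposite strands at chr16:35938470-35939151, and whether counting used strand is not given, so their shared fragments cannot be assigned. Among the further genes, Apol9b had the highest log2 fold changes, 4.47 ± 0.15 and 4.26 ± 0.14 in WT and KO co-culture. Rtp4, a chaperone whose locus overlaps Masp1 on the other strand, changed by 3.56 and 3.12, the pro-apoptotic Xaf1 by 2.35 and 2.17, Ifi44 by 1.68 and 1.76, Ifi27 by 0.93 and 1.10, and Ifi35 by 0.93 and 0.73. The inhibitor calls in both genotypes were unaltered by leaving out any single library and by each of the other settings tried.

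**Figure D3:**
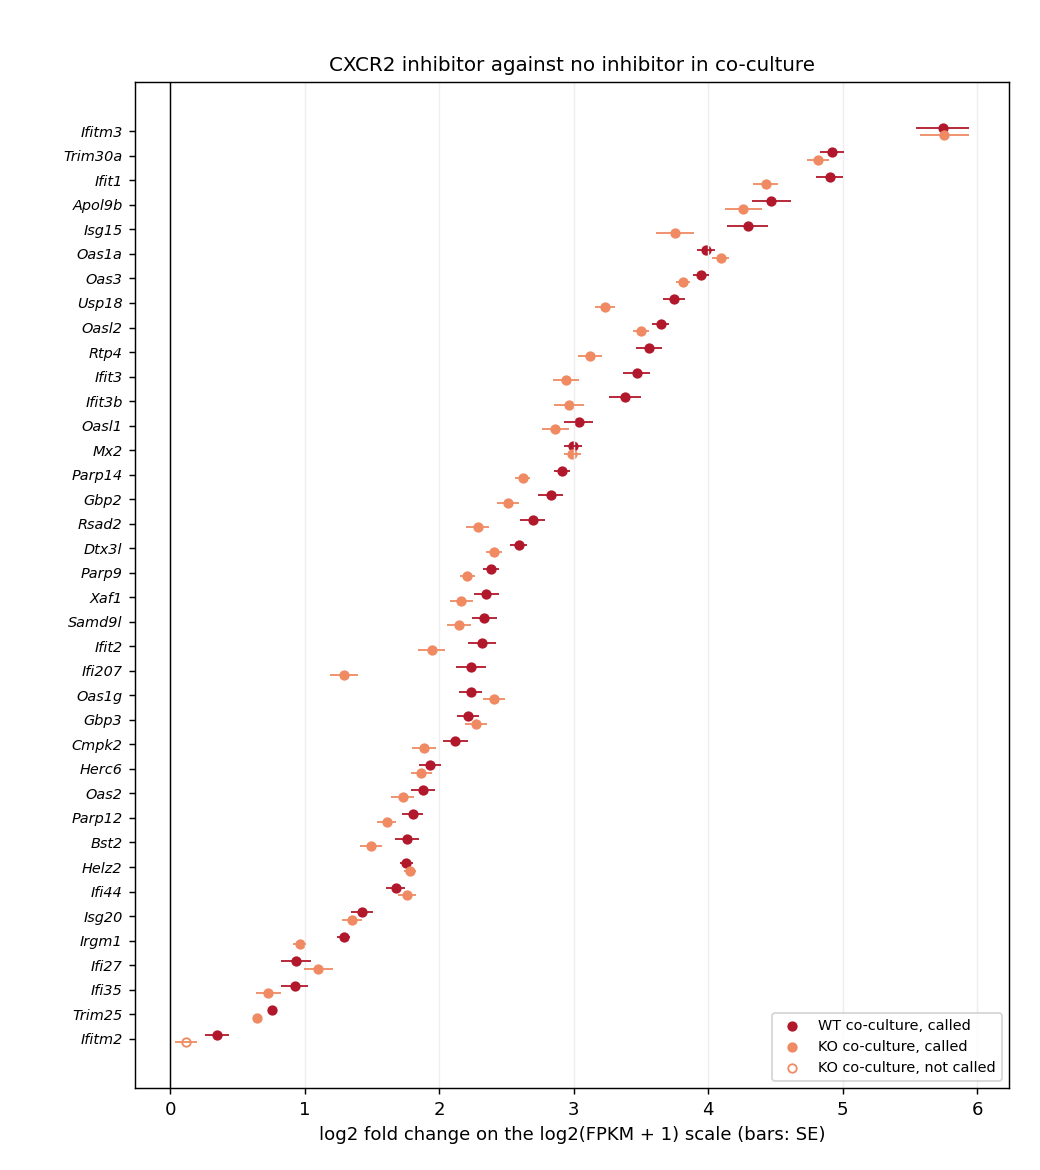
Log2 fold change (bars: SE) for inhibitor over no inhibitor in the 38 tested members, in WT co-culture (dark red, n = 3 against 3) and KO co-culture (orange, n = 4 against 3), ordered by the WT value. Ifitm3, Trim30a and Ifit1 lead in both, and Ifitm2 is the only open symbol.

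Members with an ISRE-type match had a median log2 fold change of 3.38 in WT co-culture (17 genes, 0.35 to 5.74), and the 14 tested members whose windows held no match had a median of 2.03 (0.76 to 3.65). The ranges overlap widely. Ifitm2, with a match, had the lowest value of all, and Oasl2, without one, had the highest of the second set. This is a description of these windows and was not tested.

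Members of the signalling pathway outside the effector list were examined from lists of ligands, receptors, regulatory factors, sensors, feedback regulators and antigen presentation genes. Of the 11 interferon ligand genes none reached the level for testing. Ifnb1, which encodes interferon beta, had 2.05, 1.74 and 1.64 FPKM in WT co-culture with inhibitor and 0.549, 0.334, 1.29 and 0.562 FPKM in KO co-culture with inhibitor. It had 0 fragments in each of the 9 libraries without inhibitor, so it was at least 8.35-fold higher in WT and at least 3.37-fold higher in KO co-culture with inhibitor, by the floor of 3 fragments per library. These levels rest on 68 fragments in WT and 42 in KO co-culture with inhibitor. Each KO library with inhibitor was below each WT library with inhibitor for Ifnb1, a difference that was not tested. Ifna1, Ifna2, Ifnab, Ifnz and Ifng were at 0 in all 16 libraries.

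The transcription factors that carry the signal were higher with the inhibitor. Irf7, the factor that amplifies type I interferon production, had 27.3, 30.8 and 30.3 FPKM in WT co-culture with inhibitor and 29.6, 30.7, 31.1 and 28.5 FPKM in KO co-culture with inhibitor. Without inhibitor it had 1.05, 1.06 and 1.21 FPKM in WT co-culture, 1.12, 1.37 and 1.09 FPKM in KO co-culture and 0.481, 0.282 and 0.466 FPKM in monoculture. The log2 fold changes with inhibitor were 3.85 ± 0.07 in WT and 3.82 ± 0.07 in KO co-culture for Irf7, 3.07 and 3.06 for Stat2, 1.22 and 1.19 for Irf9, and 1.12 and 0.92 for Irf1. All 6 tested regulatory factors were higher in both.

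Receptors and kinases moved less. Of 12 tested receptors, kinases and STATs, 6 were higher and 1 lower in WT co-culture with inhibitor. In KO co-culture 6 were higher and 2 lower. Beside these and the other pathway counts, 33.5% of all genes were higher and 33% lower in WT co-culture. In KO co-culture the shares of all genes were 34.8% higher and 34.7% lower. Of 15 sensors and adaptors, 14 were higher in each, with none lower in WT and 1 lower, Tmem173 (STING), in KO co-culture. The RNA sensor Ddx58 (RIG-I) had log2 fold changes of 1.78 and 1.79 in WT and KO co-culture, and Ifih1 (MDA5) 2.17 and 2.05. All 12 tested genes of class I presentation and the immunoproteasome were higher in both, Psmb8 by 2.70 and 2.65 and H2-K1 by 2.69 and 2.58. Among 8 feedback regulators, 5 were higher and 1 lower in WT and 4 higher and 1 lower in KO co-culture. Ube2l6, the conjugating enzyme for ISG15, was higher by 2.76 and 2.74, and the phosphatase Ptpn6 was lower by log2 values of -0.75 in each.

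**Figure D4:**
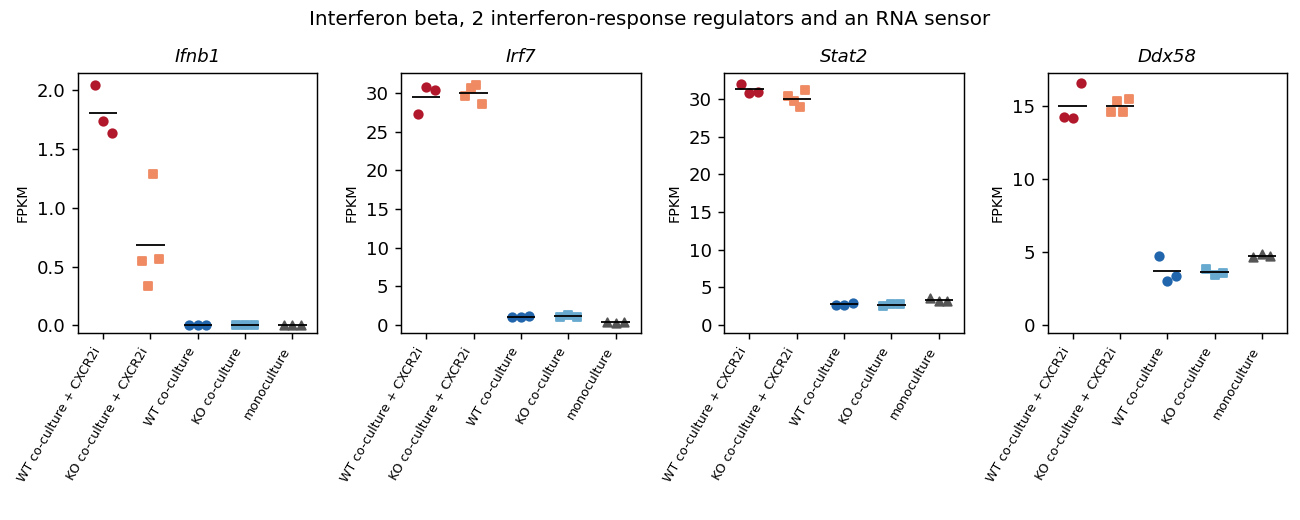
FPKM of Ifnb1, Irf7, Stat2 and Ddx58 in each of the 16 libraries, by group, with a bar at the group mean and a separate linear axis for each gene. Ifnb1 is at 0 in the 9 libraries without inhibitor, and for each of the 4 genes the 7 inhibitor libraries lie above the other 9.

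Other expression moved with the inhibitor too. Summed over 7 measured hepatocyte markers, the level was 714.7 to 727.9 FPKM in WT co-culture with inhibitor and 927.4 to 981.8 FPKM in KO co-culture with inhibitor, against 123.5 to 128.6 FPKM in WT co-culture, 146.6 to 150.2 FPKM in KO co-culture and 245.6 to 252.2 FPKM in monoculture. The 9 pancreatic epithelial markers summed to 2260.0 to 2514 and 2143 to 2275 FPKM in WT and KO co-culture with inhibitor, against 978.9 to 1094 and 1006 to 1098 FPKM without and 1512 to 1518 FPKM in monoculture, with Tff1 at 0 in all. The 5 cholangiocyte markers summed to 511.7 to 519.4 FPKM in WT and 502.3 to 550.6 FPKM in KO co-culture with inhibitor, against 369.3 to 396.7 FPKM in WT co-culture, 384.7 to 401.2 FPKM in KO co-culture and 1150.0 to 1169 FPKM in monoculture. Of the 9 pancreatic markers, 5 averaged at least 1 FPKM in both inhibitor groups and in monoculture, and 4 in both untreated co-cultures. The pancreatic and cholangiocyte lists share Krt19, Krt7 and Epcam, so their sums are not separate measures. The part of the marker shifts in the effector results, with inhibitor or against monoculture, was not tested. The 10 macrophage markers summed to 4.44 to 5.75 FPKM in WT and 4.01 to 4.81 FPKM in KO co-culture with inhibitor, against 1.27 to 1.58 FPKM in WT co-culture, 0.950 to 1.32 FPKM in KO co-culture and 0.501 to 1.45 FPKM in monoculture. Of these 10, the 6 genes Adgre1, Clec4f, Vsig4, C1qa, C1qb and Tyrobp were at 0 in all libraries. Neutrophil, lymphocyte, dendritic, endothelial and stellate markers each summed to under 0.5 FPKM in all libraries, and Cxcr2 had at most 4 fragments in any library. In bulk RNA, fewer cells of a type and less RNA per cell cannot be told apart.

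Without the inhibitor, effectors were called in both directions against monoculture, as were genes at large. In WT co-culture 11 members were higher and 15 lower than in monoculture, where 62% of all genes were called, 30.1% higher and 31.9% lower. In KO co-culture 13 were higher and 13 lower, against 61.5% of all genes called, 30.3% higher and 31.2% lower. The members' share of calls was thus near that of all genes. Their median log2 fold change was -0.01 against 0.01 over all genes in WT co-culture, and 0.04 against 0.01 in KO co-culture. Both comparisons use the same 3 monoculture libraries, so their values are given side by side only.

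Ifi207, a member of the PYHIN family of nucleic acid binding proteins, had the highest log2 fold change of the members on the log2(FPKM + 1) scale. Its ratio of mean FPKM to monoculture was 6.57 in WT and 8.46 in KO co-culture. Oas3 and Ifi44 had higher ratios in both. Mx2 (7.10) and Apol9b (6.89) had higher ratios in WT only, from 9 and 12 fragments in monoculture. Ifi207 had 2.81, 1.90 and 1.85 FPKM in WT co-culture and 2.97, 2.31 and 3.17 FPKM in KO co-culture, against 0.428, 0.256 and 0.314 FPKM in monoculture. The groups did not overlap, and the log2 fold changes were 1.25 ± 0.11 in WT (adjusted p = 1.63e-07, limma) and 1.51 ± 0.11 in KO co-culture (adjusted p = 1.86e-08, limma).

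Usp18 had 1.51, 1.48 and 1.30 FPKM in WT co-culture and 1.91, 2.02 and 2.42 FPKM in KO co-culture, against 0.546, 0.494 and 0.263 FPKM in monoculture. Its log2 fold changes were 0.76 ± 0.08 and 1.12 ± 0.08 in WT and KO co-culture. Ifit1 in the co-culture libraries given above, at 0.862 FPKM or more, lay over its 0.331, 0.378 and 0.516 FPKM in monoculture, with log2 fold changes of 0.55 ± 0.10 in WT and 0.86 ± 0.10 in KO co-culture. Ifi27, a mitochondrial and nuclear-envelope protein, had 1.06, 1.51 and 1.27 FPKM in WT co-culture and 0.571, 1.03 and 0.981 FPKM in KO co-culture, against 0.399, 0.342 and 0.367 FPKM in monoculture. Its log2 fold changes were 0.73 ± 0.11 in WT and 0.43 ± 0.11 in KO co-culture. Xaf1 (0.71 in WT, 0.70 in KO) and Apol9b (0.70, 0.83) had similar log2 fold changes.

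Ifit2 lay at the other end. It had 0.854, 0.631 and 0.717 FPKM in WT co-culture and 0.891, 0.893 and 1.11 FPKM in KO co-culture, against 4.15, 5.57 and 4.86 FPKM in monoculture. The log2 fold changes were -1.75 ± 0.11 (adjusted p = 2.36e-09, limma) in WT and -1.57 ± 0.11 (adjusted p = 8.35e-09, limma) in KO co-culture. Ifit2 thus moved against its family member Ifit1, while Ifit3 was lower by log2 values of -0.89 and -0.90 and Ifit3b by -0.55 and -0.62.

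The guanylate-binding and immunity-related GTPases Gbp2, Gbp3 and Irgm1 were lower in both co-cultures, while Mx2, a GTPase of the dynamin-like family, was higher (log2 fold changes of 0.35 in WT and 0.25 in KO). Irgm1 had 8.26, 7.20 and 8.47 FPKM in WT co-culture and 9.43, 9.23 and 9.80 FPKM in KO co-culture, against 22.6, 23.3 and 23.7 FPKM in monoculture, with log2 fold changes of -1.43 ± 0.05 and -1.21 ± 0.05. Gbp2 had 0.420, 0.503 and 0.322 FPKM in WT co-culture and 0.607, 0.414 and 0.638 FPKM in KO co-culture, against 3.03, 2.59 and 2.62 FPKM in monoculture, with log2 fold changes of -1.40 ± 0.09 and -1.27 ± 0.09. With the inhibitor Irgm1 stood at 20.6 to 21.2 FPKM in WT and 19.1 to 19.9 FPKM in KO co-culture, below all 3 monoculture libraries, whereas Gbp2 at 8.34 to 9.58 and 7.02 to 9.10 FPKM lay above them. No test compared inhibitor groups with monoculture.

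The remaining members had log2 fold changes of less than 1.1 in size on the log2(FPKM + 1) scale, which understates changes of genes below 1 FPKM. Ifitm3 had -0.98 in WT and -1.05 in KO co-culture, Samd9l -0.95 and -0.88, Dtx3l -0.67 and -0.62, and Parp9 -0.62 and -0.52. Of the 6 OAS genes, Oasl1 was higher in both (0.52 and 0.47), Oas3 had 0.13 in WT (not called) and 0.14 in KO co-culture (called), and the other 4 were not called in either. Oas3 was low in all these libraries, and its co-culture libraries lay above all 3 of monoculture. Oas3 had 0.0527, 0.157 and 0.101 FPKM in WT co-culture and 0.119, 0.101 and 0.110 FPKM in KO co-culture, against 0, 0.00887 and 0.00692 FPKM in monoculture. The ratio of means to monoculture was 19.7 in WT (counting interval 5.22 to 171) and 20.8 in KO co-culture (5.41 to 176), with 2 fragments in all in monoculture. In WT co-culture Oas3 was called with a pseudocount of 0.1 (log2 fold change 0.92, adjusted p = 0.000172, limma) and on recovered fragments (adjusted p = 3.94e-08, limma on the log2 of depth-scaled fragments). Ifi44, called in both on the main scale, had ratios of 19.3 in WT (6.99 to 106) and 16.5 in KO co-culture (6.07 to 92.6), with 3 fragments in all in monoculture. On recovered fragments Cmpk2 was lower in both co-cultures (log2 fold changes of -1.04 in WT and -1.36 in KO), and Trim30a (1.40), Oasl2 (0.66) and Oas2 were higher in KO co-culture, calls that the log2(FPKM + 1) scale did not give. Isg15 was called in KO co-culture alone (0.54 ± 0.15, against -0.04 ± 0.15 in WT), and Parp14 and Rtp4 in WT co-culture alone (-0.26 and -0.32, against -0.01 and -0.07 in KO). Calls near the threshold changed in both co-cultures when single libraries were left out. In WT co-culture Herc6 lost its call without monoculture replicate 1 (adjusted p 0.0854, limma), while Oas3 gained one without WT replicate 1 (0.0259) and Bst2 without WT replicate 3 (0.0452). In KO co-culture Trim30a gained a call without monoculture replicate 2 (0.0154) and Ifi35 without KO replicate 1 (0.0184). Oas3 in KO co-culture lost its call without any 1 of the 6 libraries compared (adjusted p 0.0660 to 0.0881, limma). Calls in KO co-culture were also lost for Herc6 without monoculture replicate 1 or 2 or KO co-culture replicate 2 or 3 (up to 0.159), Ifitm2 without monoculture replicate 1 or 3 or KO replicate 1 or 2 (up to 0.0723), Ifi44 without monoculture replicate 3 or KO replicate 1 (up to 0.10) and Parp12 without monoculture replicate 3 (0.0564).

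**Figure D5:**
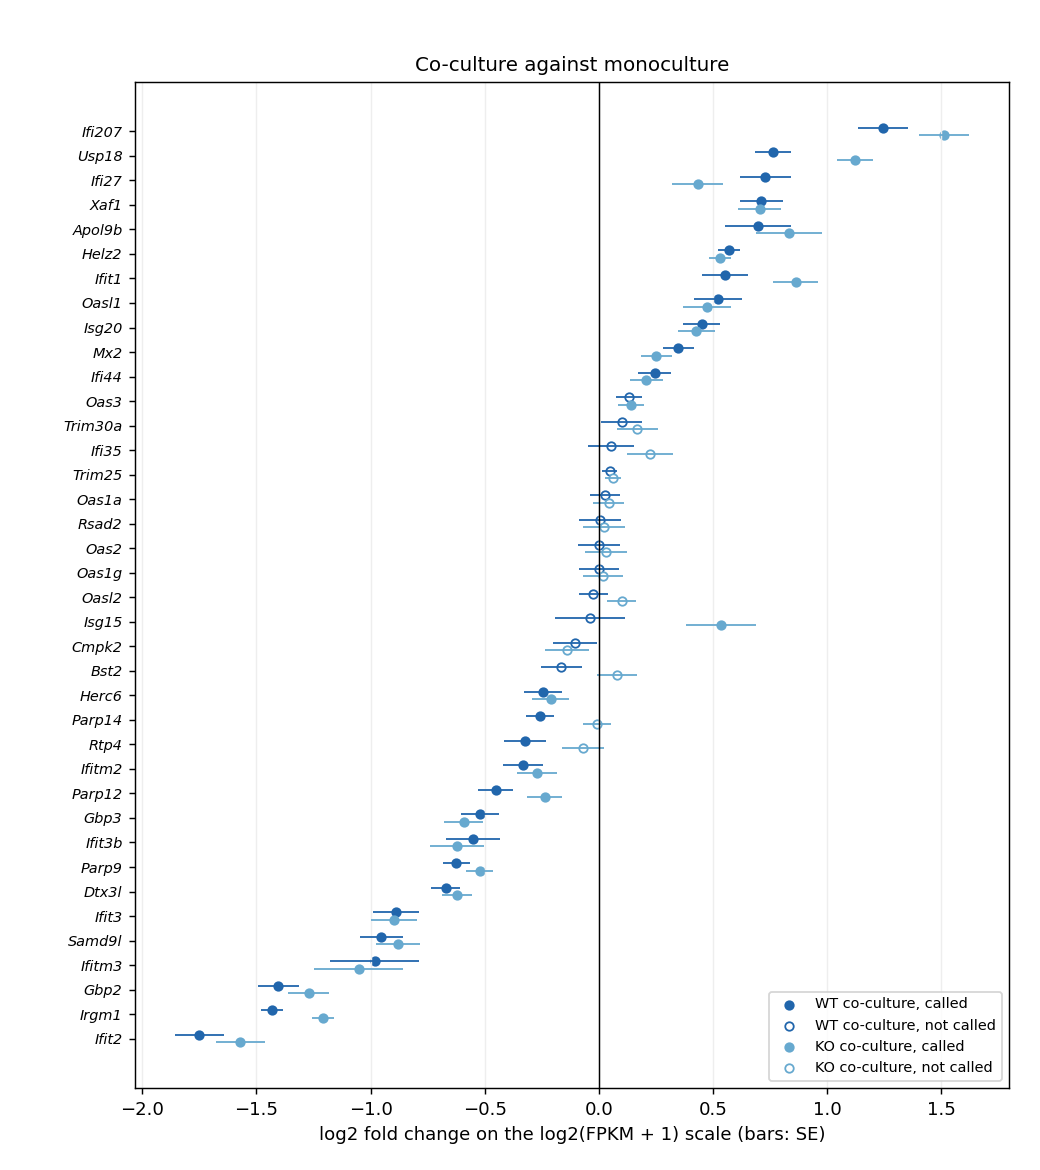
Log2 fold change (bars: SE) of the 38 tested members for WT co-culture (dark blue) and KO co-culture (light blue) over monoculture, n = 3 each, ordered by the WT value; open symbols were not called. Values run from 1.51 for Ifi207 to -1.75 for Ifit2 on the log2(FPKM + 1) scale, which draws genes below 1 FPKM, such as Oas3, close to 0.

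Genes of the pathway outside the list were also called in both directions. Against monoculture, Irf9 had log2 fold changes of 0.68 in WT and 0.76 in KO co-culture and Irf7 0.58 and 0.64, while Irf1 had -0.79 and -0.69 and Stat2 -0.19 and -0.23. Of 12 class I presentation genes, 9 were lower and 2 higher in WT co-culture, and 8 lower and 2 higher in KO co-culture, where 31.9% and 31.2% of all genes were lower in the 2 comparisons. Of 15 sensors and adaptors, 7 were lower and 3 higher in WT, and 6 lower and 2 higher in KO co-culture. The 2 largest changes of all pathway genes were those of Tnfaip3 (A20), an inhibitor of NF-kB signalling, at -3.63 and -3.50, and of Socs3, an inhibitor of cytokine receptors, at -1.67 and -1.64.

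Few effectors were called between genotypes of the co-cultured cells. In KO against WT co-culture 3 members were higher and 0 lower, where 2.99% of all genes were called, 1.65% higher and 1.34% lower. The members' log2 fold changes ran from -0.30 to 0.57 with a median of 0.04. The split of calls over all genes, 55.1% higher, became 43.8% under rescaling without mitochondrial and the 50 most abundant genes. Those called were Usp18 (0.36 ± 0.08, adjusted p = 0.0279), Parp14 (0.25 ± 0.06, adjusted p = 0.0446) and Irgm1 (0.23 ± 0.05, adjusted p = 0.0209), by limma.

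Their library values were close. Usp18 and Irgm1 are given above, with each KO library over each WT library. Parp14 had 1.19, 1.22 and 1.26 FPKM in KO co-culture, against 1.01, 0.697 and 0.902 FPKM in WT co-culture, also without overlap. None of the 3 calls held in every fit lacking 1 library. In the fits that lost the call, the log2 fold changes stayed positive. They were 0.29 to 0.38 for Usp18, 0.18 to 0.26 for Parp14 and 0.21 to 0.23 for Irgm1. Usp18 lost its call without WT replicate 2 or 3 or KO replicate 2 or 3 (adjusted p 0.0356 to 0.123 over fits lacking 1 library), Parp14 without WT replicate 2 or 3 or any KO replicate (0.0161 to 0.135), and Irgm1 without KO replicate 1 or 3 (0.0190 to 0.0916). Isg15 had the largest value, 0.57 ± 0.15, with 3.19, 3.95 and 3.30 FPKM in KO co-culture against 1.40, 2.58 and 2.15 FPKM in WT co-culture, and was not called (adjusted p = 0.0622, limma). Without WT replicate 2 it was called at an adjusted p of 0.0395. Without WT replicate 1 Ifit1 (0.00371) and Ifi207 (0.0364) were called, and without WT replicate 3 Apol9b (0.0319). Of the pathway genes, B2m (0.19) and Tapbp (0.25) were called higher and none lower.

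With the inhibitor present, 4 members were lower in KO than in WT co-culture and 0 higher, where 2.31% of all genes were called, 1.66% higher and 0.649% lower. Ifi207 differed most, with 7.73, 7.99, 8.89 and 8.69 FPKM in KO co-culture with inhibitor, against 14.1, 12.9 and 14.6 FPKM in WT co-culture with inhibitor. No library overlapped, and the log2 fold change was -0.68 ± 0.10 (adjusted p = 0.00322, limma). The other 3 were Ifit3 (-0.53 ± 0.09), Ifit3b (-0.48 ± 0.11) and Rsad2 (-0.39 ± 0.09), with adjusted p of 0.00749, 0.0370 and 0.0298 by limma. Ifit3b lost its call without any 1 of 6 of the 7 libraries, all but KO replicate 2 (up to 0.168), and Rsad2 without any WT replicate or KO replicate 1 (up to 0.118). Ifit3 held in each of those fits, and lost its call with a pseudocount of 0.1 and on recovered fragments (adjusted p 0.00731 to 0.454 over all alternatives). The remaining 34 tested members had log2 fold changes of -0.27 to 0.19, and no tested pathway gene was called. Stat2, Irf7, Irf9 and Irf1 differed by -0.06, 0.02, 0.06 and -0.10 on the log2 scale.

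The inhibitor effect itself was compared between genotypes as KO minus WT. Here 3 members were lower and 0 higher, where 0.816% of all genes were called, 0.535% higher and 0.281% lower. Over all genes, 65.6% of calls were higher, and 77.3% under the rescaling named above. The members' median difference was -0.19, against -0.01 over all genes. Ifi207 had the largest difference, with an inhibitor effect of 1.29 ± 0.10 in KO and 2.24 ± 0.11 in WT co-culture, a difference of -0.94 ± 0.15 (adjusted p = 0.0103, limma). The same comparison gave -0.51 ± 0.11 for Usp18 (adjusted p = 0.0463, limma) and -0.33 ± 0.07 for Irgm1 (adjusted p = 0.0399, limma). For all 3, higher untreated means in KO co-culture enter that difference beside the treated ones. For Ifi207 the untreated log2 fold change of KO over WT co-culture was 0.27, which was not called. Usp18 lost its call without any 1 of 12 of the 13 libraries, all but WT co-culture replicate 1 (up to 0.128), and Irgm1 without any KO co-culture or any inhibitor library (up to 0.105). For the leading genes of the inhibitor effect the difference was 0.01 ± 0.27 for Ifitm3 and -0.11 ± 0.12 for Trim30a, and neither was called.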

How the data were processed

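Total RNA was sequenced in 16 libraries labelled as mouse hepatocytes, per the labels' protocols with the RNeasy kit and Novogene library preparation. Alignment with HISAT2 and the builds GRCm38 and mm10 are named in the submitters' processing notes. Strandedness, annotation release, aligner version and counter are not given in these sources. The authors deposited FPKM values, that is fragments divided by gene length and by a per-library total, per the file headers, without pooling. FPKM times gene length gave whole multiples of 1 step per library for 100% of values (within 0.1), so fragments could be recovered. Floors of 3 fragments and 95% intervals cover counting error only, since PCR copies are not separate molecules. The sum of recovered fragments over the authors' divisor was 0.970 to 0.974 with inhibitor, 0.997 to 1.01 in untreated co-culture and 1.03 in monoculture.

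Values were used as log2(FPKM + 1). Genes averaging at least 1 FPKM over 16 libraries (11395) entered 1 limma 3.58.1 fit (R 4.3.3) with a mean per group, 11 residual degrees of freedom and trended moderated variances. Tests were two-sided over 7 comparisons, several of which share libraries, adjusted by Benjamini-Hochberg across the 11395 genes in each, with a threshold of 0.05. The fit was tested on simulated data. No count model was used, because the deposited unit is FPKM. Same-numbered libraries of different groups did not deviate together (30 same-numbered pairs, correlation of deviations -0.300 to 0.270, median 0.0104).

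Values of 1 pathway gene are not reported here. Members and gene lists were chosen with earlier results of these data known. Library values are written out for the 3 members with the largest called change each way in a comparison (1 each way for genotype with inhibitor and for the difference of inhibitor effects), and some others were added after their values were seen. Alternatives were a pseudocount of 0.1, no filter, quantile normalization, rescaling without mitochondrial and the top 50 genes, recovered fragments, only the libraries compared, a replicate block and leaving out each library. Positions follow GRCm38; promoters are from RefSeq.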

Additional observations from a re-analysis of the deposited data

Results flagged for a closer look

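For 3 members the inhibitor effect differed between genotypes by the interaction test of limma, taken as the effect in KO minus that in WT co-culture on the log2 scale. Ifi207 differed by -0.9411 (lower in KO, adjusted p = 0.0103, with an adjusted p of at most 0.0451 under all alternatives run). Usp18 differed by -0.5144 (adjusted p = 0.0463, between 0.0386 and 0.270 over the alternatives). Irgm1 differed by -0.328 (adjusted p = 0.0399, between 0.0251 and 0.105 over the alternatives). Their causes were not tested. Among 40 members, no library of the group of 4, KO co-culture with inhibitor, stood apart from the other 3 by Dixon's criterion.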

How the results depend on the processing

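Over 23 alternatives, 266 tested member results (38 members in 7 comparisons) kept their direction where called, and 36 changed their call under at least 1 alternative, none of them an inhibitor effect. The counts of members called with the inhibitor were 38 to 39 in WT and 37 to 38 in KO co-culture, and against monoculture 22 to 28 in WT and 22 to 32 in KO co-culture. The small counts moved. For KO against WT co-culture (3 members), the count was 1 with no filter on low values, 1 after rescaling without mitochondrial and the top 50 genes, 0 when just the 6 libraries compared were fitted, and 0 to 5 when single libraries were left out. With inhibitor (4 members), it was 1 with a pseudocount of 0.1, 2 with no filter, 1 on recovered fragments and 2 to 4 without single libraries. For the difference of the inhibitor effects (3 members), it was 1 with no filter, 1 after rescaling and 1 to 5 without single libraries. With the replicate number as a block, the genotype count with inhibitor was 2 and the count of the difference was 1. Replicate numbers share only a label, so the block is no pairing and a lost call is not read as a weaker effect. The causes of these moves were not tested. The Ifi207 calls in both of the last comparisons held under all alternatives run. Where members had few fragments without inhibitor (Oas1g, Oas2, Oas3, Rsad2, Mx1, and in monoculture Ifi44), depth limits any ratio, and on the log2(FPKM + 1) scale their change is understated.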
